A study of Homo sapiens with 6 samples.

Results

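The ERBB receptors and their ligands were followed in HK-2 cells, an established line derived from human kidney proximal tubule, after knockdown of PARP1. PARP1 makes poly(ADP-ribose) on chromatin and at DNA breaks. The 10 genes were chosen by name, and each had 1 row among the 30403 genes of the count table. They are the receptors EGFR, ERBB2 and ERBB3 and the ligands AREG, EREG, HBEGF, TGFA, BTC, EGF and NRG1. Cells were cultured in serum-containing medium, transfected with a plasmid for a short hairpin RNA against PARP1 (shPARP1) or for a control hairpin (shCtrl), and harvested at 48 h. Each group had 3 libraries of polyadenylated RNA, and both groups went through lipid transfection. The labels give neither the hairpin sequence nor the share of cells that took up the plasmid. In bulk RNA, fewer cells of a type and less RNA per cell cannot be told apart.

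ERBB receptors are tyrosine kinases that signal as pairs. The ligands are made as membrane-anchored precursors that metalloproteases cut free, and each carries an EGF-like domain. AREG, TGFA and EGF bind EGFR, while HBEGF, EREG and BTC bind EGFR and ERBB4, and NRG1 binds ERBB3 and ERBB4. ERBB2 has no ligand of its own and pairs with the others, and ERBB3 has a kinase of little activity. In the renal tubule this system is known for its part in repair after injury, and activated receptors signal through RAS and ERK to induce feedback genes.

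The shCtrl libraries held 24429683 to 26269194 counts and the shPARP1 libraries 29387853 to 32809303, so every knockdown library was the deeper one. PARP1 itself had 262, 263 and 259 CPM (a library's counts scaled to a common total, with TMM factors) in the shCtrl libraries and 26.9, 26.2 and 28.8 CPM in the shPARP1 libraries. The labelled line was checked against markers. Of 9 proximal tubule markers, PAX8, GGT1 and CDH6 were among the 5 with enough counts for a test, whereas the endocytic receptors LRP2 and CUBN had at most 1 and 13 counts in a library. The summed level of the list was 1173 to 1199 CPM in shCtrl and 803 to 822 CPM in shPARP1. Of its 5 tested members 4 were called lower, against 28.5% of all genes tested. Most of the drop came from CDH6, at a mean of 446 CPM in shCtrl and 215 CPM in shPARP1. PAX8 fell from 417 to 345 CPM and GGT1 from 291 to 237 CPM. Leukocyte markers summed to 40.3 to 44.0 CPM in shCtrl and 30.3 to 34.1 CPM in shPARP1, with CD3E at 2 counts or fewer. Most of this sum was CSF1R, called lower, at a mean of 26.4 CPM in shCtrl and 20.6 CPM in shPARP1. CD14 was called lower too, from 8.14 to 2.72 CPM, whereas CD68 was called higher and ITGAM was not called. Epithelial markers went the other way, from 932 to 951 CPM in shCtrl to 1102 to 1129 CPM in shPARP1, with KRT8, KRT18 and KRT19 higher, CDH1 lower and EPCAM not called. Fibroblast and mural markers summed to 19.9 to 23.3 CPM in shCtrl and 11.7 to 12.1 CPM in shPARP1. LUM (mean 14.8 to 7.72 CPM) and PDGFRB (5.84 to 2.08 CPM) were called lower. THY1 was called higher (0.599 to 1.22 CPM), RGS5 was not called, and DCN was not tested. Of 5 endothelial markers 3 were among the genes counted, and they summed to at most 0.424 CPM in any library. The part of these shifts in the results below was not tested.

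All 3 receptors were lower in shPARP1, EGFR 2.07-fold, ERBB2 1.86-fold and ERBB3 1.78-fold. Of the 7 ligands, 4 were higher, with AREG 3.35-fold, EREG 2.03-fold and NRG1 1.96-fold, while HBEGF rose by 1.10-fold. EGF was lower, and TGFA and BTC did not pass the test. All 10 genes passed the filter on low counts, and 8 were called by edgeR's quasi-likelihood test, meaning an adjusted p (Benjamini-Hochberg over 16040 genes) under 0.05. Over all genes tested, 55.7% were called, 27.3% higher and 28.5% lower, so that a call alone is common here. Called changes of at least 2-fold were made by 6.48% of all genes, 2.41% higher and 4.07% lower, and by 3 of the 10 genes, AREG and EREG higher and EGFR lower. In CPM, 7 of the 10 genes had separate ranges in the 2 groups, against 60.1% of all genes tested.

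**Figure D1:**
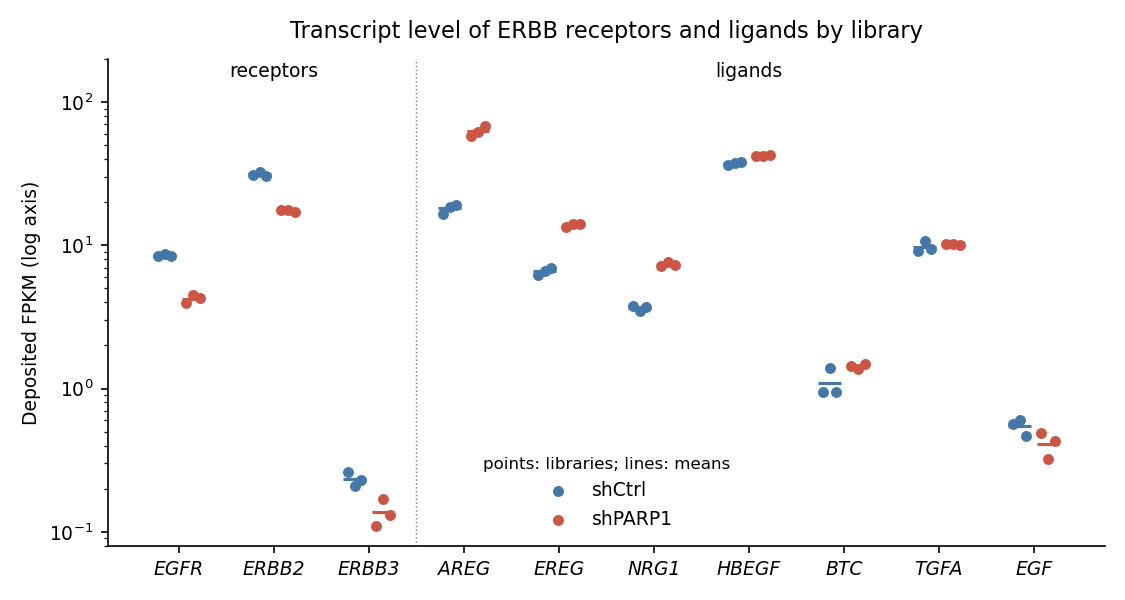
Deposited FPKM of the 3 receptor and 7 ligand genes in each library (points), on a log axis, with the mean of each group as a line. AREG passed HBEGF in all 3 shPARP1 libraries, and both groups are apart for EGFR, ERBB2, ERBB3, AREG, EREG, NRG1 and HBEGF.

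**Figure D2:**
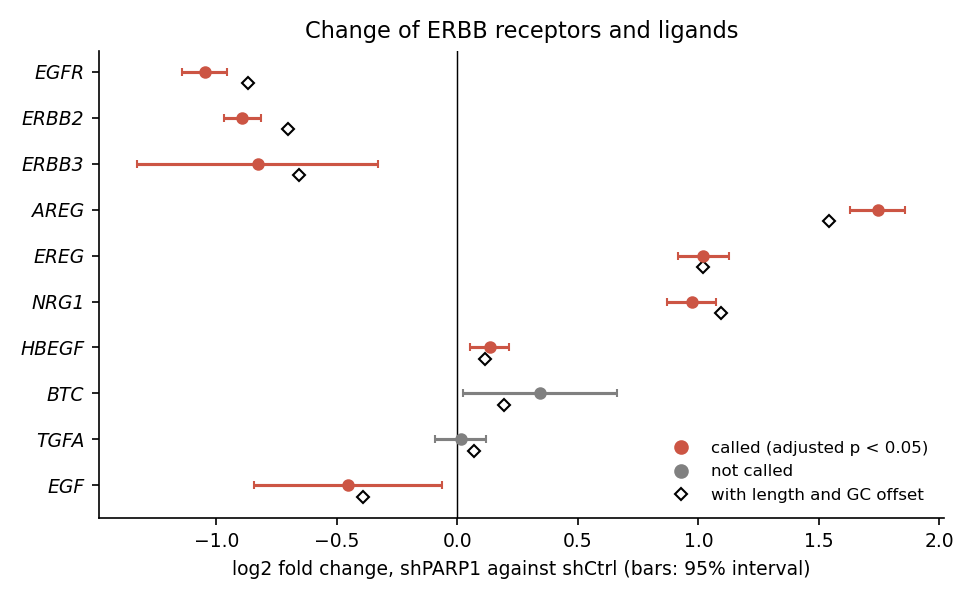
Log2 fold change of each gene in shPARP1 against shCtrl with its 95% interval (circles), and the value after an offset for gene length and GC content (diamonds). The 3 receptors lie left of 0 and AREG lies farthest right, at 1.75.

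The ligands are taken first. AREG, EREG and BTC are neighbours on chromosome 4, in a block of EGF-family genes that also holds EPGN. Their promoter windows are shown because AREG and EREG rose together while BTC beside them did not pass the test. The sequences are from RefSeq on GRCh38.p14 and run 5′ to 3′ along the gene, from 250 bases before to 50 after the annotated start. The AREG window is chr4:74444886-74445185 and the EREG window chr4:74364895-74365194, both on the plus strand, and the BTC window is chr4:74794474-74794773 on the minus strand. Capitals mark matches, on either strand, to the cAMP response element TGACGTCA, the AP-1 letters TGANTCA, the TATA box letters TATAAA, the CAAT box letters CCAAT and the GC box letters GGGCGG.
AREG: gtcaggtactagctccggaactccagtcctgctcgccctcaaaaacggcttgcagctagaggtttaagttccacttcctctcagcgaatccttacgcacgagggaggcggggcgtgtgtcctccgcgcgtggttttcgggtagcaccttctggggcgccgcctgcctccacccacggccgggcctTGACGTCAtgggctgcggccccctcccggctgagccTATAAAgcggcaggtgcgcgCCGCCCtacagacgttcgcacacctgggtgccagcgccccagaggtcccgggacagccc
EREG: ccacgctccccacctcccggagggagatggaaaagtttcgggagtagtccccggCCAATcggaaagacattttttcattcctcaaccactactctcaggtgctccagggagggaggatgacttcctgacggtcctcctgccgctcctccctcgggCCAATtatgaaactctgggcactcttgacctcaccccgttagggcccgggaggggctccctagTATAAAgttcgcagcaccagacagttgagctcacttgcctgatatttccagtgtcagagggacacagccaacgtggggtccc
BTC: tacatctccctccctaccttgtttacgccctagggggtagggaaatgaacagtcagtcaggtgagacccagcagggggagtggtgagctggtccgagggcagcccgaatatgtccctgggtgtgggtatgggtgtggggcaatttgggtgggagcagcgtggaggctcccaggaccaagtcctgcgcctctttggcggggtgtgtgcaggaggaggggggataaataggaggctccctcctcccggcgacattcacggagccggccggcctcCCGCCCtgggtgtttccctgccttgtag

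The AREG window held the cAMP response element at bases 186 to 193, counted from 1 at the 5′ end of the window. These letters occurred in 1.85% of 35116 RefSeq promoter windows of the same length. AREG and EREG both held TATAAA, at bases 222 to 227 and 219 to 224, which occurred in 11.53% of windows. EREG further held CCAAT at 2 places (34.61% of windows), and AREG and BTC each held 1 GC box (44.95%). TGANTCA was found in none of the 3 windows and in 7.71% of all windows. No matches overlapped in these windows. They are letters in a window and no measurement of binding.

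AREG encodes amphiregulin, a ligand of EGFR known to be induced in stressed and injured epithelium. It had 24.1, 26.2 and 27.3 CPM in the shCtrl libraries and 81.2, 85.3 and 94.1 CPM in the shPARP1 libraries. All 3 knockdown libraries lay far above all 3 controls. The log2 fold change was 1.75 (SE 0.06, edgeR quasi-likelihood adjusted p = 2.58e-32), which ranked 50 from the top among 16040 genes. AREG (ENSG00000109321) lies on the plus strand of chromosome 4, from 74445134 to 74455009 on GRCh38 in GENCODE release 29.

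EREG encodes epiregulin, a ligand of low affinity and long-lasting signal. It had 33.6, 34.6 and 37.2 CPM in shCtrl and 69.2, 72.5 and 72.4 CPM in shPARP1, again without overlap. Its log2 fold change was 1.02 (SE 0.05, edgeR adjusted p = 2.64e-24), with rank 389 from the top. The gene (ENSG00000124882) spans 74365143 to 74388751 on the same strand of chromosome 4. The 2 neighbours did not rise by the same factor. The ratio of their deposited FPKM, which scale a gene's reads by its length and the library's depth, was 2.74 ± 0.08 for AREG over EREG in shCtrl and 4.53 ± 0.27 in shPARP1 (SD, n = 3 per group, exact two-sided permutation p = 0.1, the smallest that 3 against 3 libraries allow).

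BTC encodes betacellulin and was expressed at a low level. The shCtrl libraries held 74, 115 and 80 counts of it and the shPARP1 libraries 149, 132 and 139, or 3.09, 4.43 and 3.08 CPM against 4.52, 4.28 and 4.67 CPM. The second shCtrl library reached into the range of the knockdown libraries, so the groups overlapped. On the log2 scale the difference was 0.34 (SE 0.16, 95% interval 0.02 to 0.66, edgeR adjusted p = 0.0638) and did not pass the threshold over all genes. Without shCtrl replicate 2 it was 0.55 (edgeR adjusted p = 0.00516). The upper end of the BTC interval lay below the lower ends for AREG (1.63) and EREG (0.91). BTC (ENSG00000174808) spans 74744759 to 74794686 on the minus strand. EPGN, the fourth gene of the block, had 2 counts in 1 shCtrl library, 1 in 1 shPARP1 library and 0 in the others.

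Genes around this block were listed by their transcription start. Within 1 Mb of the AREG start, 11 genes were tested, of which 9 were higher, 1 was lower and 1 was not called. Besides AREG and EREG, the called genes at 1 CPM or more on average were the chemokine genes CXCL8, CXCL5, CXCL3 and CXCL2, the folate enzyme gene MTHFD2L and PARM1. The chemokine genes had log2 fold changes of 1.84, 0.59, 1.94 and 1.38, and CXCL2 and CXCL3 are close paralogs whose reads may have been split between them. MTHFD2L, between the chemokines and EREG, went from 2.12 ± 0.32 to 3.84 ± 0.09 CPM (SD, n = 3), a log2 fold change of 0.85 (SE 0.18, edgeR adjusted p = 5.71e-05). PARM1, beyond BTC, was the lower gene (log2 fold change -0.64, SE 0.25, edgeR adjusted p = 0.0233), and its call ended without shCtrl replicate 2 (adjusted p = 0.248), shPARP1 replicate 1 (0.0624) or shPARP1 replicate 3 (0.0530). The other 2 higher genes had a mean below 1 CPM over the 6 libraries. With the window set to 500 kb on each side, 7 of 9 genes were higher, and with 2000 kb, 12 of 28 were higher and 9 lower. Over all genes tested 27.3% were called higher.

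**Figure D3:**
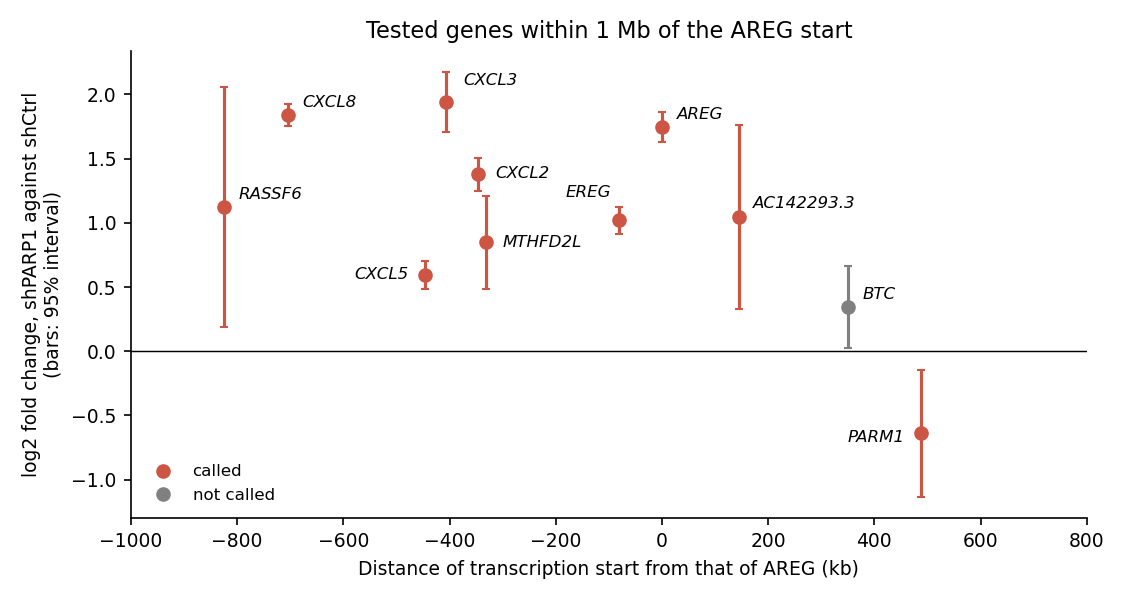
Log2 fold change with its 95% interval for the 11 tested genes whose transcription start lies within 1 Mb of that of AREG, against the distance between starts in kb. The chemokine genes, EREG and AREG lie between 0.59 and 1.94, BTC at 0.34 was not called, and PARM1 lies at -0.64.

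NRG1 encodes neuregulin 1, the ligand here that binds ERBB3 and not EGFR. The shCtrl libraries held 965, 954 and 1024 counts of it and the shPARP1 libraries 2456, 2433 and 2234, or 38.8 ± 1.84 against 76.1 ± 2.36 CPM (SD, n = 3). All knockdown libraries lay above all controls in CPM as well. Its log2 fold change was 0.97 (SE 0.05, edgeR adjusted p = 5.09e-24), rank 461 from the top. NRG1 (ENSG00000157168) lies on chromosome 8, has many promoters and isoforms, and the gene count does not separate them. Its relatives NRG2 and NRG3 had at most 9 and 2 counts in any library. ERBB4 and NRG4 were not analysed here.

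HBEGF encodes heparin-binding EGF-like growth factor, whose precursor is also the receptor for diphtheria toxin. Its level was 102, 102 and 105 CPM in shCtrl and 112, 113 and 114 CPM in shPARP1. The groups did not overlap, but the log2 fold change was only 0.13 (SE 0.04, edgeR adjusted p = 0.00442), near the middle of all tested genes at percentile 61.4. TGFA, an EGFR ligand made by many epithelia, had 50.8, 58.4 and 52.6 CPM in shCtrl and 55.1, 54.5 and 53.8 CPM in shPARP1. All 3 knockdown values were inside the control range. TGFA had a log2 fold change of 0.01 (95% interval -0.09 to 0.12, edgeR adjusted p = 0.850).

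EGF, the founding ligand, is known in the kidney as a product of the thick ascending limb and distal tubule. It was the second lowest of the 10 genes per length, with 78, 86 and 69 counts in shCtrl and 88, 53 and 69 in shPARP1, or 3.26, 3.31 and 2.65 CPM against 2.67, 1.72 and 2.32 CPM. The first knockdown library lay within the control range, so the groups overlapped. Its log2 fold change was -0.46 (SE 0.19, edgeR adjusted p = 0.0425). This call ended without shCtrl replicate 1 (adjusted p = 0.103) or 2 (0.125), without shPARP1 replicate 2 (0.253) or 3 (0.0676), and after the offset for gene length and GC content (0.0783). Of 6 markers of those tubule segments, and of the collecting duct, 3 were among the genes counted. They summed to at most 0.384 CPM in any library. That maximum came from SLC12A3, with 10 counts in shCtrl replicate 3, and SLC12A1 had 2 counts or fewer.

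Levels of different genes were compared on the FPKM scale, which takes gene length into account. In shCtrl the order from the top was HBEGF (37.5), ERBB2 (31.5), AREG (18.1), TGFA (9.77), EGFR (8.52), EREG (6.61), NRG1 (3.65), BTC (1.09), EGF (0.547) and ERBB3 (0.233), given as mean FPKM. In shPARP1 it was AREG (62.7), HBEGF (42.4), ERBB2 (17.5), EREG (13.8), TGFA (10.2), NRG1 (7.40), EGFR (4.24), BTC (1.43), EGF (0.413) and ERBB3 (0.137). In each group the ranges of neighbours in the order did not overlap over the 3 libraries. AREG and EREG moved up by 2 places each and EGFR moved down by 2.

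The 7 ligands together came to 74.0, 79.1 and 78.8 FPKM in the shCtrl libraries and 133, 138 and 144 FPKM in the shPARP1 libraries. This sum was 1.79-fold higher in shPARP1 (log2 ratio 0.84, exact two-sided permutation p = 0.1, the smallest possible with 3 against 3). AREG supplied much of it. Its share of the ligand sum was 23.4% ± 0.83 in shCtrl and 45.3% ± 1.68 in shPARP1, while that of HBEGF was 48.5% ± 1.03 and 30.7% ± 0.88 (SD, n = 3). Without AREG the log2 ratio of the sum was 0.35, and without HBEGF it was 1.27.

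**Figure D4:**
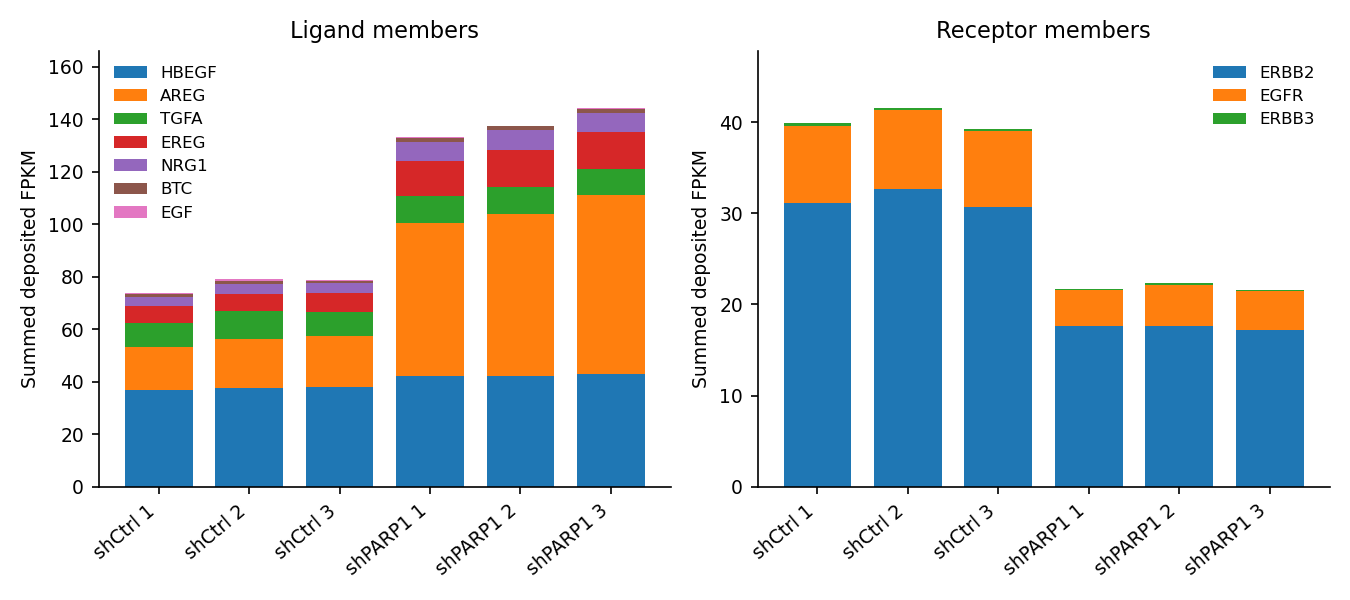
Deposited FPKM of the ligand genes (left) and receptor genes (right) stacked per library, on axes that start at 0. The ligand bars reach 74.0 to 79.1 in shCtrl and 133 to 144 in shPARP1, and the receptor bars 39.3 to 41.6 and 21.6 to 22.3.

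Among the receptors, EGFR encodes the receptor that binds most of these ligands. Its promoter window is shown as the main receptor's, for comparison with the ligand windows above. It is chr7:55018767-55019066 on the plus strand of GRCh38.p14, the first of 2 EGFR windows in RefSeq's table, with the same letters in capitals.
EGFR: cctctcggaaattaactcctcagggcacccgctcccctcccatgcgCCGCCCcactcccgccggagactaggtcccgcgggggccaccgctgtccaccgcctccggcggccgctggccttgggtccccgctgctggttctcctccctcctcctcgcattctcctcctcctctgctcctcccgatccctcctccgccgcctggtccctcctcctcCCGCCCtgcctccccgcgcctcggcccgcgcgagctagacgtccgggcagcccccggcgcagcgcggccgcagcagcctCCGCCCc

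This first EGFR window held 3 GC boxes and none of the other searched letters. The second EGFR window, not printed, had a GC content of 42.0% and held 2 matches each to TGANTCA and TATAAA and no GC box. For the first window, the GC content was 75.3%, against 66.3% for the AREG window, 57.7% for EREG and 63.0% for BTC. NRG1, called higher, and ERBB3, called lower, had no window to compare. The other members with a window, not printed, did not divide by direction. The ERBB2 and EGF windows, of genes called lower, had 60.7% and 46.7% and no GC box. The window of HBEGF, called higher, held 5 GC boxes. TGFA, not called, had 75.3% and 4 GC boxes in its first window and no GC box in its second. A link between GC content and direction was not tested. EGFR transcripts had 116, 116 and 114 CPM in shCtrl and 52.5, 58.8 and 56.2 CPM in shPARP1. Every knockdown library held about the same level, well under every control. The log2 fold change was -1.05 (SE 0.05, edgeR adjusted p = 1.06e-27), which ranked 570 from the bottom. EGFR (ENSG00000146648) spans 55019021 to 55211628 on chromosome 7, and the antisense gene EGFR-AS1 inside it had at most 2 counts in a library.

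ERBB2, the co-receptor without a ligand, had 206, 210 and 200 CPM in shCtrl and 112, 112 and 108 CPM in shPARP1. The groups were far apart, and the log2 fold change was -0.89 (SE 0.04, edgeR adjusted p = 7.23e-28). ERBB2 (ENSG00000141736) spans 39687914 to 39730426 on chromosome 17. It overlaps MIEN1 and PGAP3 on the opposite strand, of which MIEN1 was higher (log2 fold change 0.52) and PGAP3 lower (-0.34). The library kit marks strand, but the counting's strand setting is not known here, so reads in the overlap may have gone to either gene.

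ERBB3, the receptor for NRG1, was the lowest of the 10 genes per length. The 3 controls held 54, 47 and 52 counts and the 3 knockdown libraries 31, 44 and 31, or 2.02 ± 0.22 against 1.14 ± 0.26 CPM (SD, n = 3). The groups did not overlap on the CPM scale, though the nearest libraries, at 1.81 and 1.43 CPM, were close. ERBB3 had a log2 fold change of -0.83 (SE 0.25, 95% interval -1.33 to -0.33, edgeR adjusted p = 0.00358), which was -0.50 with limma on log2(FPKM + 0.1) and -0.12 on log2(FPKM + 1), scales that understate the change of low genes. The readthrough gene model AC034102.2 overlaps ERBB3 on the same strand and was higher (log2 fold change 0.28), so that the split of reads between the 2 is uncertain.

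The 3 receptors summed to 39.9, 41.6 and 39.3 FPKM in shCtrl and 21.8, 22.3 and 21.6 FPKM in shPARP1, a log2 ratio of -0.88 (exact two-sided permutation p = 0.1, the smallest possible). ERBB2 held 78.3% ± 0.31 of this sum in shCtrl and 80.0% ± 1.06 in shPARP1 (SD, n = 3), so its lead was kept. The level of AREG over that of EGFR was 2.13 ± 0.15 on the FPKM scale in shCtrl and 14.8 ± 1.06 in shPARP1 (SD, n = 3, exact two-sided permutation p = 0.1). All 3 receptors kept their call under each of 17 other fits, and so did AREG, EREG, NRG1 and HBEGF.

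Other genes of the pathway were counted from 4 lists, with 73 genes tested. Of these 19 were higher, 26 lower and 28 not called, so that 61.6% were called against 55.7% of all genes. With the offset for gene length and GC content 24 were higher and 22 lower. By list, 45.5% of tested shedding and transport genes, 76% of receptor-proximal, 59.1% of inhibitor and down-regulation, and 53.3% of ERK output genes were called. Higher calls made up 27.3% of all genes tested and lower calls 28.5%.

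Ligand shedding and transport genes were higher for 1 of 11 and lower for 4, with a median log2 fold change of -0.35 against -0.01 over all genes. ADAM17, the main sheddase of AREG, EREG, HBEGF and TGFA, went from 63.3, 63.5 and 67.2 CPM in shCtrl to 41.6, 43.3 and 42.9 CPM in shPARP1. It fell by 0.60 on the log2 scale (SE 0.05, edgeR adjusted p = 1.47e-15), without overlap. ADAM10, the main sheddase of EGF and BTC precursors, fell from 38.5 ± 3.44 to 24.7 ± 1.69 CPM (SD, n = 3), a log2 fold change of -0.64. ADAM12 fell too (-0.81), from 62.5 ± 3.26 to 35.7 ± 0.82 CPM. ADAM15, a related metalloprotease, was the member that rose, from 173 ± 7.34 to 317 ± 14.2 CPM (0.87).

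Receptor-proximal signalling genes were higher for 8 of 25 and lower for 11, with a median of -0.14. The kinase gene AKT1 rose from 145 ± 3.10 to 260 ± 5.49 CPM (SD, n = 3), a log2 fold change of 0.84. HRAS (0.59) and the ERK kinase gene MAP2K2 (0.35) rose as well, while the RAF kinase gene ARAF fell by 0.54 on the log2 scale, from 172 ± 3.16 to 118 ± 2.71 CPM.

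Receptor inhibitors and down-regulation genes were higher for 5 of 22 tested and lower for 8, with a median of -0.15. ERRFI1, a feedback inhibitor that binds the EGFR kinase domain, had 40.9, 42.9 and 35.9 CPM in shCtrl and 26.2, 28.0 and 31.5 CPM in shPARP1, or -0.48 on the log2 scale (SE 0.07, edgeR adjusted p = 3.07e-08). The groups did not overlap. LRIG1, a membrane protein that promotes receptor degradation, fell by 0.81 on the log2 scale (SE 0.21) at 2.99 ± 0.63 CPM in shCtrl and 1.71 ± 0.24 in shPARP1 (SD, n = 3). Its relative LRIG3 fell by 1.13, and the phosphatase genes PTPRJ and PTPN1 fell by 1.07 and 0.66. The endocytic adaptor gene EPN1 rose from 259 ± 1.93 to 521 ± 16.5 CPM (1.01).

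ERK output genes were higher for 5 of 15 tested and lower for 3, with a median of 0.00. FOSL1 (0.89), DUSP5 (0.94), PHLDA1 (0.82) and the transcription factor gene ETV4 (0.83) rose, ETV4 from 35.4 ± 0.11 to 63.0 ± 0.74 CPM (SD, n = 3), and so did IER3 (0.46). The lower genes were EPHA4 (-1.48, from 3.06 ± 0.69 to 1.09 ± 0.13 CPM), EPHA2 (-0.22) and SPRED2 (-0.18). The feedback genes DUSP6, SPRY2, SPRY4 and SPRED1 were not called, nor were ETV5, EGR1 and CCND1. IER3 and the lower and uncalled genes of this list were named after their values were seen.

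**Figure D5:**
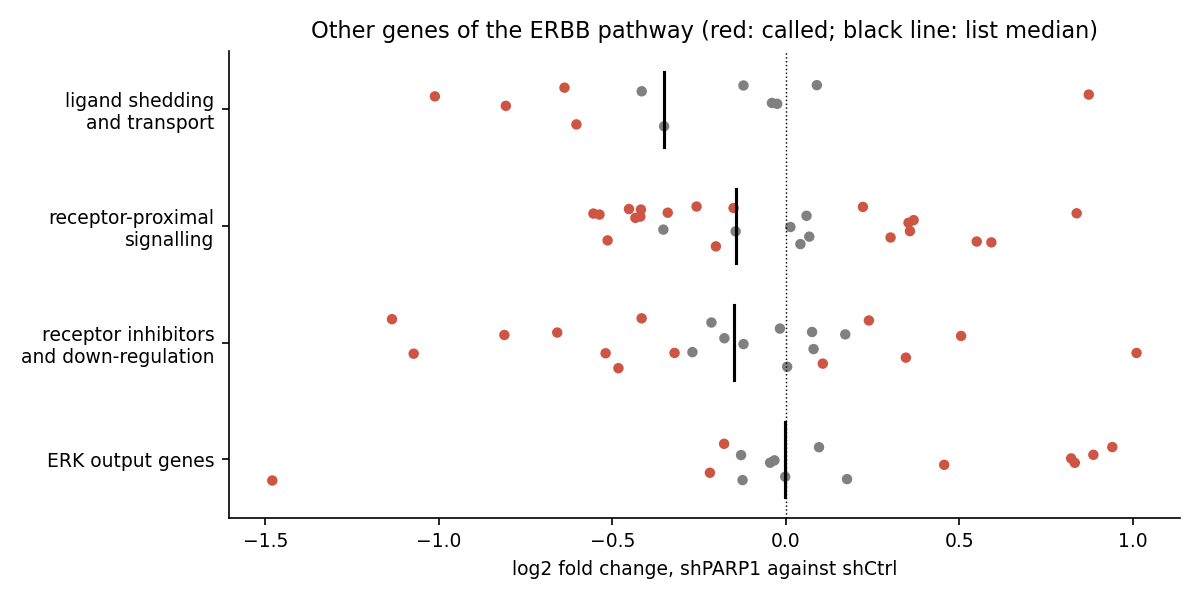
Log2 fold change of each tested gene of 4 pathway lists, with called genes in red, others in grey, and the list median as a black line. Points fall on both sides of 0 in every list, and the medians lie between -0.35 and 0.00.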

How the data were processed

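Gene expression was measured by RNA-seq of polyadenylated RNA in 6 libraries, 3 shPARP1 and 3 shCtrl. The authors deposited unnormalized whole-number read counts for each gene, and a second table with FPKM at 2 decimals. The submitters' processing notes name GRCh38 as build and bcl2fastq, TopHat2 and edgeR as tools, without versions. How reads were counted, with which strand setting and annotation, is not stated there, so overlapping genes and near-identical copies may share reads.

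Counts were fitted in R 4.3.3 with edgeR 4.0.16: filterByExpr (16040 of 30403 genes), TMM scaling, and the robust quasi-likelihood F test of shPARP1 against shCtrl, with p-values adjusted over all genes and called under 0.05. The standard error is the log2 fold change divided by the square root of F. FPKM came from 30306 genes and served for levels between genes. At the library totals, 3 counts are between 0.0914 and 0.123 CPM. In counts simulated from these libraries with 200 changed genes among 16040, the test found 34% of those set to 1.25-fold, 76% of those set to 1.5-fold, 86% of the 2-fold set and 96% of the 4-fold set, and made 9 false calls. In the data 55.7% of genes were called, so the p-value needed for a call was smaller in the simulation. These shares and the false calls therefore do not carry over to the data.

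Libraries of the same group differed by more than sampling noise (chi-square divided by its degrees of freedom 2.54 to 4.63), so each library counted as 1 replicate. The labels do not say that replicates were separate cultures, so p-values reflect only how these libraries vary, and that variation may be technical.

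The 10 genes, the lists and the tests were chosen with earlier results of these data known. A marker from each of 2 cell type lists is not reported here and was left out of their sums and counts. Named genes were the 10 members, PARP1, EPGN, the NRG genes, up to 4 called genes of each list by smallest p-value, ADAM17, ADAM10, ERRFI1 and LRIG1, and called genes of at least 1 CPM within 1 Mb of AREG. A symbol on several rows was taken from the row whose GENCODE release 29 name matched, and 97.4% of identifiers matched that release. The length and GC offset used natural splines with 4 degrees of freedom, per library, and 99.2% of tested genes had both values. Alternatives were other scaling and filters, DESeq2 1.42.0, limma 3.58.1 (voom, and log2(FPKM + 1) or log2(FPKM + 0.1)), a 1.5-fold minimum, a replicate block and leaving out each library. Promoter windows came from RefSeq on GRCh38.p14. Other steps used Python 3.11.15 and scipy 1.17.1.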

Additional observations from a re-analysis of the deposited data

How the results depend on the processing

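Of the 10 genes, EGFR, ERBB2, ERBB3, AREG, EREG, NRG1 and HBEGF kept direction and call under 17 other fits, where AREG ranged from 1.54 to 1.79 and EGFR from -1.09 to -0.86 on the log2 scale. With a 1.5-fold minimum 6 of the 10 were called, as were 3440 genes in all and 17 pathway genes, and HBEGF and EGF lost their call. EGF was called in 7 of the 17 fits (adjusted p 0.0210 to 0.253) and BTC in 1. TGFA changed sign without shCtrl replicate 1 (-0.0281, adjusted p 0.715) or 3 (-0.00458, 0.958), and leaving out single libraries gave -0.0281 to 0.0876. The summed ligand level had a log2 ratio of 0.35 without AREG and 1.27 without HBEGF, the latter chosen after seeing the data. The summed receptor level was -0.92 from TMM-scaled counts per kilobase and -0.998 without ERBB2. The replicate numbers gave no clear sign of pairing: same-numbered libraries had correlations of deviations of 0.04, -0.004 and 0.04. Libraries numbered 1 and 3 correlated best with their own number, and those numbered 2 did not. Deviations from a mean of 3 libraries are tied to one another, so this check cannot exclude a batch shared by number. A fit with the replicate block called 9060 genes and 8 of the 10. The length and GC offset moved the share of calls that were higher from 48.9% to 54.1%. Low counts, 31 to 149 per library, limit BTC, EGF and ERBB3, whose intervals are the widest of the 10. The 500 kb and 2000 kb windows around AREG were chosen after seeing the data.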

Other observations

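Windows of 1 Mb around the start of the other members were counted in the same way, with the member itself left out. Over all genes tested 27.3% were called higher and 28.5% lower. The windows of HBEGF and ERBB2 came nearest to those shares, and no difference from them was tested. Around EGFR, which fell, 5 of 8 other tested genes were higher and 1 was lower. Around ERBB2, which fell as well, 16 of 45 were higher and 13 lower, and around ERBB3 22 of 55 were higher and 17 lower. Around HBEGF 12 of 36 were higher and 12 lower, and around TGFA 11 of 26 were higher and 6 lower. NRG1 rose in a window in which 1 of 5 other tested genes was higher and 3 were lower. The EREG and BTC windows overlap that of AREG, with 9 of 11 other tested genes higher and 1 lower around EREG, and 8 of 14 higher and 2 lower around BTC. Around EGF 3 of 11 were higher and 5 lower, with a median log2 fold change of -0.52.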
